A study of Zea mays with 36 samples.

Results

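The maize genes dwarf8 (d8, feature Zm00001d033680) and dwarf9 (d9, feature Zm00001d013465) encode DELLA proteins, and their transcripts were followed in embryos of a high oil content line and a low oil content line. Both were taken by their feature IDs, with no rule on their values, and they are 2 of the 63340 features listed in all. Embryos had been dissected every 5 days between day 15 and day 40 after pollination, from seeds that had lain in water overnight, with 3 libraries for each line and age, 18 for each line and 36 together. The labels give the oil level of each line and no line name, and with 1 line per level, an effect of oil content and one of any other genetic difference cannot be told apart. Whether the 3 libraries of a group came from separate ears or plants is not given in the sources used here, so p-values measure the spread between these libraries, which may be technical.

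DELLA proteins are nuclear regulators of the GRAS family that hold back gibberellin responses. When gibberellin binds its receptor GID1, the receptor docks onto the DELLA protein, which is then tagged with ubiquitin by an SCF ligase and degraded, so gibberellin acts by removing the repressor. Maize has this closely related pair on separate chromosomes, and dominant mutant alleles of either gene give dwarf plants that respond poorly to gibberellin. In the maize kernel the balance of gibberellin and abscisic acid is known for setting whether an embryo matures or germinates on the ear. Transcript levels, measured here, do not give the amount of DELLA protein.

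The deposited values are RPKM, read numbers scaled by the length of the feature and by the total of the library, so levels of the genes can be set side by side. Library totals lay between 41247297 and 66760746 reads. In the values, d8 has a feature length of 1893 bases and d9 of 1878 bases, which leaves 879 to 5732 reads per library for d8 and 1592 to 5402 for d9. Both genes were well expressed: among the 28048 features that reached 1 RPKM in 3 or more libraries, d8 stood between the percentiles 64.5 and 92.2 of a library and d9 between 78.5 and 93.8. Replicate 2 of the high-oil 35-day group and replicate 1 of both 40-day groups had the lowest mean correlation to their own group. The values were 0.938, then 0.934 in high-oil and 0.941 in low-oil embryos. The next library, high-oil 35-day replicate 1, was close at 0.944. The 3 lowest, picked by rank with no cutoff, are called the libraries that stand apart, and results were also computed without these 3. How reads that match both genes were assigned is not given in the sources used here, so a shift between d8 and d9 is less certain than their sum. If such reads were dropped or counted for both genes, the sum is affected too. The embryo label was not checked against marker genes, and other gibberellin genes were not analysed here, because 0 of the 44146 annotated gene IDs matched the table of gene names at hand.

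d8 was highest in the youngest embryos of both lines. At 15 days its 3 libraries had 46.3, 58.3 and 43.4 RPKM in high-oil embryos. In the low-oil line they had 36.8, 40.98 and 45.5 RPKM at that age. No library of a later age reached these levels in RPKM, the highest being 35.0 RPKM in high-oil 40-day replicate 2. After median-of-ratios scaling between libraries, that library had 35.9. This was above the 3 low-oil 15-day libraries (28.7, 32.1 and 35.4) and high-oil 15-day replicate 3 (34.1).

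By 20 days every d8 library was below every 15-day library of its line. The libraries had 14.2, 21.2 and 19.02 RPKM in high-oil embryos and 28.1, 27.0 and 21.8 RPKM in low-oil embryos, so the lines did not overlap, with the high-oil embryos lower. The difference of -0.49 log2 units did not pass (SE 0.22, limma, adjusted p = 0.187). Averaged over lines, d8 fell by 1.03 on the log2 scale between 15 and 20 days (SE 0.16, adjusted p = 1.15e-05, limma on log2(RPKM + 1), where every fold change here is on this scale). A fall with an adjusted p below 0.05 was found for 22.3% of all features in this interval. The median change of all features was -0.11 log2 units, and the change of d8 was -0.86 (limma, adjusted p = 5.07e-05) after median-of-ratios scaling, which removes that shift. In embryo RNA, fewer cells with the transcript and less transcript per cell cannot be told apart.

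At 25 days the lines lay close together. d8 had 16.3, 21.1 and 11.2 RPKM in high-oil embryos and 14.6, 14.6 and 16.9 RPKM in low-oil embryos, with overlapping ranges. The change from 20 to 25 days averaged over lines was -0.44 log2 units (SE 0.16, limma, adjusted p = 0.0345), against 20.5% of all features called lower. That call was lost with median-of-ratios scaling (-0.29, adjusted p = 0.144) and without any 1 of 8 libraries (adjusted p of 0.052 to 0.124), which were replicates 2 and 3 at 20 days and 1 and 3 at 25 days of high-oil embryos, and replicates 1 and 2 at each of these ages of low-oil embryos.

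The lowest d8 level of the series was at 30 days in high-oil embryos. Its libraries had 9.40, 8.24 and 16.5 RPKM, against 20.0, 19.7 and 19.1 RPKM in low-oil embryos. The high-oil embryos were lower in all 3 libraries, with a difference of -0.79 log2 units (SE 0.22, limma, adjusted p = 0.0162), where 6.08% of all features were called lower. The call was lost when high-oil 30-day replicate 1 (adjusted p = 0.0877), high-oil 30-day replicate 2 (adjusted p = 0.132) or low-oil 30-day replicate 1 (adjusted p = 0.0548) was left out, and when only the compared groups were fitted (adjusted p = 0.0863).

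In the oldest embryos the mean of d8 was above its lowest value in each line. At 35 days it had 15.4, 13.9 and 16.2 RPKM in high-oil embryos and 24.6, 22.4 and 20.9 RPKM in low-oil embryos, again without overlap, and the difference of -0.55 log2 units did not pass (SE 0.22, limma, adjusted p = 0.0996). At 40 days it had 17.9, 35.0 and 29.5 RPKM in high-oil embryos and 18.98, 24.0 and 25.2 RPKM in low-oil embryos, and the ranges overlapped. Averaged over lines, the steps were 0.32 log2 units from 30 to 35 days (SE 0.16, limma, adjusted p = 0.229) and 0.38 from 35 to 40 days (SE 0.16, adjusted p = 0.197), neither past the threshold of 0.05. Without high-oil 40-day replicate 1, the low d8 library at that age and 1 of the 3 that stand apart, the last step was 0.52 log2 units (limma, adjusted p = 0.0452). Without all 3 it was 0.55 and did not pass (limma, adjusted p = 0.069).

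The mean of d9, the other DELLA gene, was higher in high-oil embryos at the youngest age and lower from 30 days on. At 15 days its libraries had 40.1, 55.4 and 53.3 RPKM in high-oil embryos and 24.0, 22.4 and 35.1 RPKM in low-oil embryos. The ranges were apart, and d9 was higher in high-oil embryos by 0.86 log2 units (SE 0.27, limma, adjusted p = 0.0422), where 4.16% of all features were called higher. This call was lost without high-oil 15-day replicate 2 or 3 or low-oil 15-day replicate 1 or 2 (adjusted p = 0.174, 0.148, 0.163 and 0.181), with quantile normalization (adjusted p = 0.0559) and with no filter on low features (adjusted p = 0.0719).

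The d9 libraries of a group spread widely at 20 days and lay close together at 25 days. At 20 days they had 17.7, 39.5 and 34.3 RPKM in high-oil embryos and 33.4, 37.7 and 22.7 RPKM in low-oil embryos. At 25 days they had 32.9, 33.7 and 27.2 RPKM in high-oil embryos and 21.3, 24.4 and 22.8 RPKM in low-oil embryos. The lines overlapped at 20 days and not at 25 days, where the difference of 0.43 log2 units (SE 0.27, limma, adjusted p = 0.3) did not pass.

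From 30 days on the mean of d9 was lower in high-oil embryos. At 30 days the libraries had 21.7, 15.8 and 31.5 RPKM in high-oil embryos and 25.6, 49.2 and 32.6 RPKM in low-oil embryos. At 35 days they had 16.5, 34.2 and 24.8 RPKM in high-oil embryos and 41.4, 34.1 and 34.7 RPKM in low-oil embryos. The ranges overlapped at both ages, at 35 days only through high-oil replicate 2, which is among the libraries with the lowest correlation to their own group.

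At 40 days d9 had 32.2, 35.5 and 30.9 RPKM in high-oil embryos and 39.0, 40.4 and 43.6 RPKM in low-oil embryos. All low-oil libraries were above all high-oil ones. The differences at 30, 35 and 40 days, -0.62, -0.58 and -0.31 log2 units (SE 0.27 each), had adjusted p of 0.167, 0.159 and 0.607 with limma and did not pass.

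**Figure D1:**
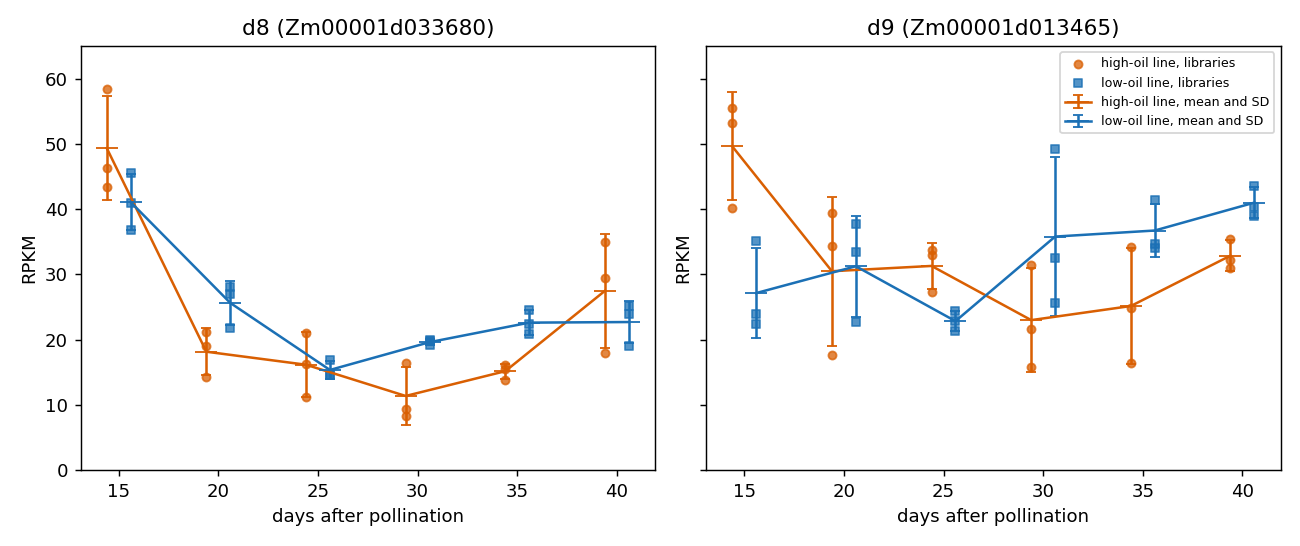
Level of d8 (left) and d9 (right) in RPKM against days after pollination, with 1 point per library, circles for the high-oil and squares for the low-oil line, and the mean with its SD over 3 libraries. d8 is highest at 15 days in both lines and lowest at 30 days in high-oil embryos; the mean of d9 is higher in high-oil than in low-oil embryos at 15 days and lower at 40 days.

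Ordered by level, the 12 groups of d8 ran between 49.3 ± 7.93 RPKM in high-oil 15-day embryos and 11.4 ± 4.47 RPKM in high-oil 30-day embryos (SD, n = 3). The second group was low-oil 15-day (41.1 ± 4.34 RPKM), followed by high-oil 40-day (27.5 ± 8.72), low-oil 20-day (25.6 ± 3.36), low-oil 40-day (22.7 ± 3.28) and low-oil 35-day (22.6 ± 1.87). Below them came low-oil 30-day (19.6 ± 0.463), high-oil 20-day (18.2 ± 3.6), high-oil 25-day (16.2 ± 4.95), low-oil 25-day (15.4 ± 1.31) and high-oil 35-day (15.2 ± 1.17). Neighbours in this RPKM order overlapped except at 2 places, between low-oil 15-day and high-oil 40-day embryos and between low-oil 35-day and low-oil 30-day embryos. The first of these breaks was lost with median-of-ratios scaling. Low-oil 15-day libraries then lay between 28.7 and 35.4, and high-oil 40-day libraries between 21.2 and 35.9.

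In RPKM, the order of d9 was flatter and had no such break. It ran between 49.6 ± 8.26 RPKM in high-oil 15-day embryos and 22.8 ± 1.58 RPKM in low-oil 25-day embryos (SD, n = 3). After the highest group came the low-oil 40-day (40.998 ± 2.38), 35-day (36.7 ± 4.04) and 30-day (35.8 ± 12.1) embryos, then high-oil 40-day (32.9 ± 2.34) and 25-day (31.3 ± 3.54), low-oil 20-day (31.2 ± 7.71), high-oil 20-day (30.5 ± 11.4), low-oil 15-day (27.1 ± 6.9), high-oil 35-day (25.2 ± 8.85) and high-oil 30-day (23.0 ± 7.92). The libraries of every pair of neighbouring groups in this RPKM order overlapped. After median-of-ratios scaling both ends of the order changed. The mean of low-oil 40-day embryos (42.8) was then above that of high-oil 15-day embryos (40.1). At the lower end, low-oil 15-day embryos (21.2) came just below low-oil 25-day embryos (21.4).

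Averaged over the lines, age changed d8 and was not shown to change d9. Such an average can hide courses that run opposite ways in the lines. From 15 to 40 days the d9 estimates were -0.57 in high-oil and 0.60 in low-oil embryos, neither past the threshold. The test of any difference among the 6 ages, averaged over lines, gave F = 26.2 for d8 (limma, adjusted p = 4.82e-09) and F = 1.96 for d9 (adjusted p = 0.139), while 75.4% of all features passed it. None of the 5 steps between neighbouring ages, also averaged over lines, passed for d9, with changes between -0.28 and 0.29 log2 units (SE 0.19 each, limma, adjusted p of at least 0.297).

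The oldest embryos were compared with the youngest within each line. d8 had 27.5 ± 8.72 RPKM at 40 days, against 49.3 ± 7.93 at 15 days, in high-oil embryos, a log2 change of -0.86 (SE 0.22, limma, adjusted p = 0.00154). In the low-oil line it had 22.7 ± 3.28 RPKM at 40 days, against 41.1 ± 4.34 at 15 days, a change of -0.83 (SE 0.22, limma, adjusted p = 0.00204). Falls were frequent, with 37.4% of all features called lower in high-oil and 37.2% in low-oil embryos, and the median feature moved by -0.24 in each. After median-of-ratios scaling neither fall of d8 passed, with changes of -0.45 in high-oil embryos (limma, adjusted p = 0.0601) and -0.43 in low-oil embryos (adjusted p = 0.0764).

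The d9 means lay on opposite sides of 0 change in the lines over the same span, and neither change passed. It had 32.9 ± 2.34 RPKM at 40 days, against 49.6 ± 8.26 at 15 days, in high-oil embryos, a log2 change of -0.57 (SE 0.27, limma, adjusted p = 0.0763). In the low-oil line it had 40.998 ± 2.38 RPKM at 40 days, against 27.1 ± 6.9 at 15 days, a change of 0.60 (SE 0.27, limma, adjusted p = 0.0588). The low-oil change passed after median-of-ratios scaling (1.004, limma, adjusted p = 0.00372), where the high-oil change was -0.16 (adjusted p = 0.67). It also passed without 1 of 6 libraries (adjusted p of 0.026 to 0.049), which were replicate 1 at 20 days, 3 at 30 days and 1 or 2 at 35 days of high-oil embryos, and replicate 3 at 15 days or 2 at 30 days of low-oil embryos. The high-oil change passed without high-oil 20-day replicate 1 (-0.57, limma, adjusted p = 0.048).

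The difference between these changes was tested directly. For d9 the high-oil change lay 1.17 log2 units below the low-oil one (estimate -1.17, SE 0.38, 95% interval -1.95 to -0.39), with a limma adjusted p of 0.106 over all features and 0.0331 when only the 4 groups concerned were fitted. This interaction passed for 3.14% of all features. For d8 the estimate was -0.03 (SE 0.31, 95% interval -0.67 to 0.61, limma, adjusted p = 0.988).

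Over all 6 ages, the course of d9 differed between the lines by a small margin (F = 4.77, limma, adjusted p = 0.0448), a result that 6.68% of all features shared. That of d8 did not pass (F = 4.06, adjusted p = 0.0758). The d8 test passed without high-oil 25-day replicate 3, 30-day replicate 3 or 40-day replicate 1 (adjusted p = 0.0333, 0.0147 and 0.0154). The order of the genes turned with median-of-ratios scaling, which gave adjusted p of 0.0595 for d9 and 0.0413 for d8, and the d9 call was lost in 24 of the 36 fits that left out 1 library.

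**Figure D2:**
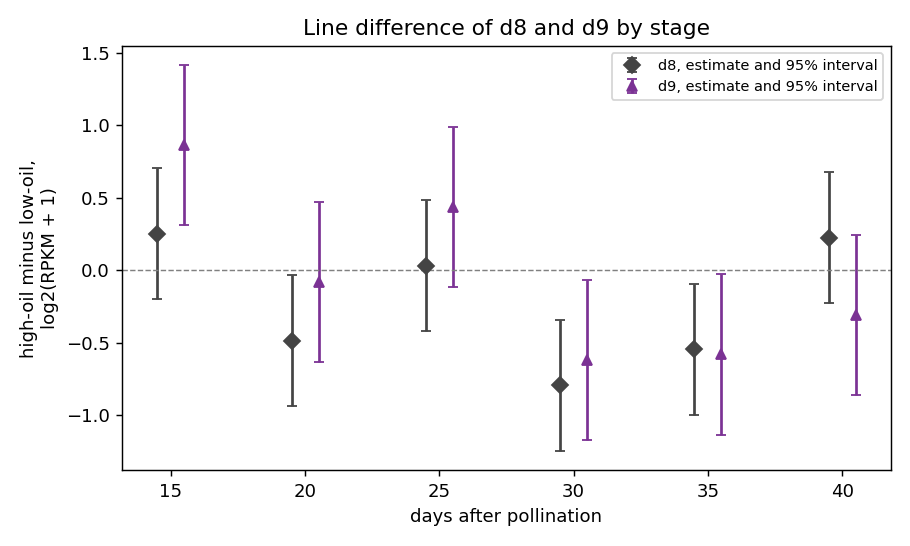
Difference between the lines, high-oil minus low-oil, in log2(RPKM + 1) at each age for d8 (diamonds) and d9 (triangles), with 95% intervals from the limma fit before adjustment. The d9 interval at 15 days lies above 0. The d8 interval at 20 days and the intervals of both genes at 30 and 35 days lie below 0. After adjustment d9 at 15 days and d8 at 30 days passed.

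Averaged over the ages, neither gene passed the line comparison. The difference, high-oil minus low-oil, was -0.22 log2 units for d8 (SE 0.09, 95% interval -0.40 to -0.04, limma, adjusted p = 0.0633), against a median of -0.07 over all features and a share of 31.9% called. For d9 it was -0.05 (SE 0.11, 95% interval -0.27 to 0.18, limma, adjusted p = 0.782), and 0.04 after median-of-ratios scaling. The d8 value passed without high-oil 15-day replicate 2, 20-day replicate 2, 25-day replicate 2, 30-day replicate 3 or 40-day replicate 2, or low-oil 40-day replicate 1 (adjusted p of 0.0138 to 0.0483), and was -0.13 after median-of-ratios scaling (adjusted p = 0.269).

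The balance of the pair, which does not depend on the scaling between libraries, turned early. d9 was above d8 in 30 of 30 libraries from 20 to 40 days. At 15 days d8 was above d9 in 5 of 6 libraries, all 3 of the low-oil line and 2 of 3 of the high-oil line. As a share of the summed RPKM, d8 made up 49.9% ± 4.51 in high-oil embryos and 60.6% ± 4.1 in low-oil embryos at 15 days, and 38.4% ± 5.36 in high-oil and 45.5% ± 3.62 in low-oil embryos at 20 days (SD, n = 3).

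The early turn was tested on the log2 ratio of d8 to d9, a comparison added after the values were seen. In the high-oil line the ratio was -0.69 ± 0.323 at 20 days, against -0.01 ± 0.261 at 15 days. In the low-oil line it was -0.26 ± 0.211 at 20 days, against 0.62 ± 0.248 at 15 days. In neither line did the ages overlap. In the high-oil line the gap was narrow, from -0.297 in 15-day replicate 3 to -0.314 in 20-day replicate 1. The mean change of -0.78 had p = 0.005 in an exact permutation test within lines, two-sided, the smallest p that 400 splits can give (adjusted p = 0.04 over the 8 permutation tests of the ratio and the sum). Ages apart in the same direction in both lines always give this p, so the test adds nothing to the separation already seen.

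At 40 days the mean log2 ratio was -0.31 in high-oil and -0.86 in low-oil embryos, with overlapping libraries and no test at that age alone. In the low-oil line the 3 libraries had a log2 ratio of -1.04, -0.75 and -0.79 at 40 days, against 0.62, 0.87 and 0.37 at 15 days, without overlap. In the high-oil line the ratio passed through a low of -1.03 ± 0.156 at 30 days, and the libraries had -0.84, -0.02 and -0.07 at 40 days, against 0.21, 0.07 and -0.30 at 15 days, with overlap. The low value at 40 days came from high-oil replicate 1, which is among the libraries with the lowest correlation to their own group.

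Averaged over lines the ratio changed by -0.89 from 15 to 40 days (exact permutation test, two-sided, p = 0.025, adjusted p = 0.05, which is at the threshold and not below it). Without the 3 libraries that stand apart it changed by -0.72 (exact permutation p = 0.05). The change was 1.18 log2 units less negative in high-oil embryos, -0.31 against -1.48 in low-oil embryos (exact permutation of the line labels within ages, added after the values were seen, two-sided, p = 0.015, adjusted p = 0.05). That difference was 1.36 without the 3 libraries (exact permutation p = 0.0167), and between 1.03 and 1.44 with any 1 library left out. These permutations take the lines as alike at 15 and at 40 days. Their p is therefore not exact for a difference between the changes alone. The mean line difference of the ratio over all ages was -0.18 (permutation p = 0.139, two-sided, 18 libraries per line), below 0 at 4 of 6 ages.

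**Figure D3:**
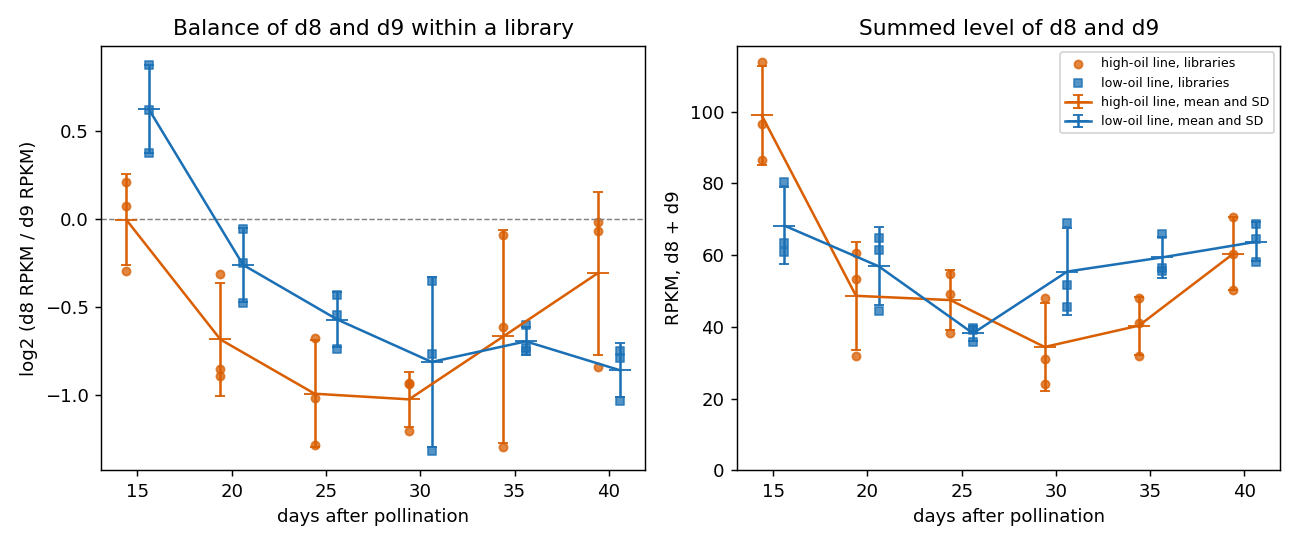
Left, log2 ratio of d8 to d9 RPKM within each library, with a dashed line at equal levels; right, the summed RPKM of d8 and d9, both against days after pollination, with 1 point per library and the mean with its SD over 3 libraries for the high-oil (circles) and low-oil line (squares). From 20 days on every library lies below the dashed line, and the sum is highest in high-oil 15-day embryos.

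The summed level of the pair was highest in the youngest high-oil embryos. It does not depend on how shared reads were split, provided that each was counted once. At 15 days it was 99.0 ± 13.8 RPKM in high-oil embryos and 68.2 ± 10.7 in low-oil embryos (SD, n = 3), and the libraries did not overlap. It went on through 48.6, 47.5, 34.4, 40.3 and 60.4 RPKM at 20, 25, 30, 35 and 40 days in high-oil embryos and through 56.9, 38.2, 55.4, 59.3 and 63.7 RPKM in low-oil embryos. The high-oil sum was thus lowest at 30 days and the low-oil sum at 25 days, and the lines were again apart at 35 days, with the high-oil embryos lower.

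Of the tests of this sum, the change from 15 to 20 days averaged over lines was -0.66 log2 units (exact permutation test, two-sided, p = 0.025, adjusted p = 0.05). This test was added after the values were seen. Of the 8 adjusted values, that of the early change in the ratio alone was below 0.05, and its test too was added after the values were seen. From 15 to 40 days the sum changed by -0.40 (exact permutation p = 0.035, adjusted p = 0.056), but by 0.012 after median-of-ratios scaling (exact permutation p = 0.94). The high-oil change over that span was lower than the low-oil one by 0.62 (estimate -0.62, test added after the values were seen, exact permutation p = 0.055, adjusted p = 0.0733). Line labels were permuted within ages here too, so the limit given for the ratio holds for this p. The line difference over all ages was -0.13 (permutation p = 0.281, 18 libraries per line).

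d8 and d9 varied together across all libraries, but this was not shown within the low-oil line over all its ages. No test compared the correlations between lines or ages. Across the 36 libraries their log2(RPKM + 1) values had a Pearson r of 0.58 (permutation p = 0.00025) and a Spearman rho of 0.58 (permutation p = 0.00025), with an adjusted p of 0.00075 for each over 12 correlations computed. All correlation p-values except those around the group means come from free permutation of libraries. They treat libraries of 1 group as independent, although these share line and age. Within high-oil embryos r was 0.80 (rho 0.83, n = 18, permutation p = 0.0002 and 5e-05), and 0.74 without the 2 libraries farthest from the median of d8. Within low-oil embryos r was 0.11 (rho 0.19, n = 18, permutation p = 0.678 and 0.443), and 0.30 without the 2 farthest libraries.

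The 15-day low-oil libraries had the highest d8 of their line, with d9 at 24.0, 22.4 and 35.1 RPKM. From 20 to 40 days r was 0.64 in high-oil embryos (rho 0.70, n = 15, permutation p = 0.0105 and 0.00424) and 0.61 in low-oil embryos (rho 0.51, n = 15, permutation p = 0.0176 and 0.0558). Around the group means, where age and line are removed, r was 0.52 (rho 0.56, n = 36, permutation within groups p = 0.00137 and 0.00149). Both genes come from the same libraries and share their totals, and with median-of-ratios scaling r over all libraries was 0.44 (permutation p = 0.00787). Adjusted over the 12 correlations, the p of Pearson's r was 0.00075 and 0.678 within high-oil and low-oil embryos, 0.014 and 0.0212 in them from 20 to 40 days, and 0.00292 around the group means. Without the 2 libraries farthest from the median of d8, replicate 2 of the 15-day and of the 30-day high-oil embryos, r was 0.44 (rho 0.51, n = 34, permutation p = 0.00887 and 0.00271).

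**Figure D4:**
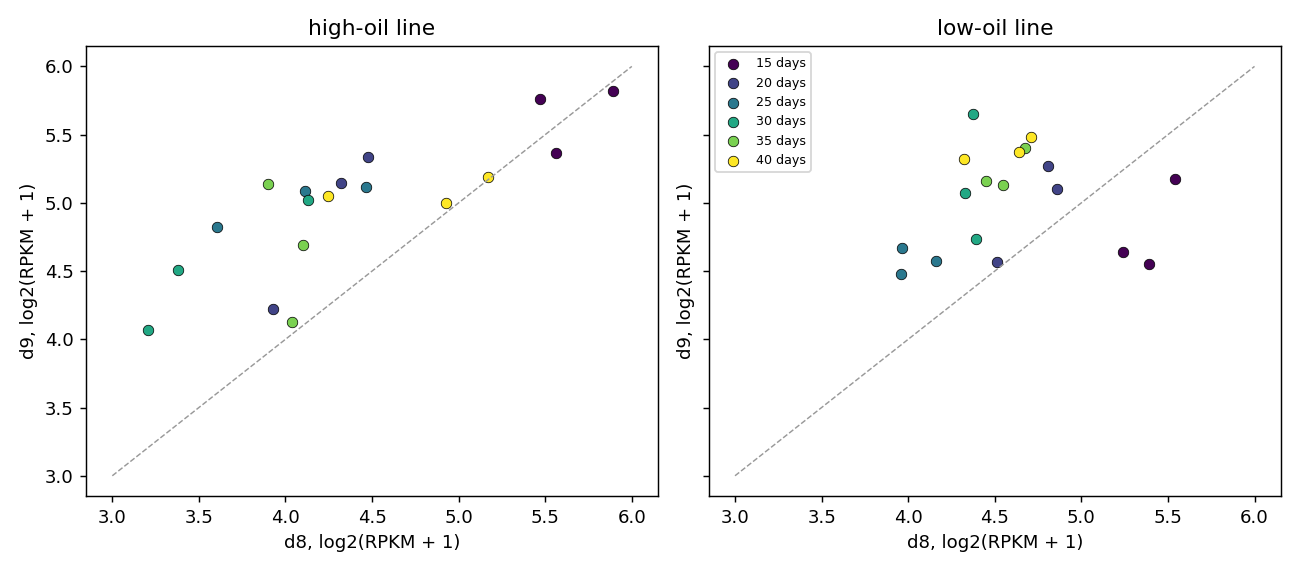
d9 against d8, both as log2(RPKM + 1), in the high-oil (left) and low-oil line (right), with 1 point per library coloured by age and a dashed line at equal levels. The 15-day low-oil libraries lie to the right of the dashed line, where d8 is above d9, and all other low-oil libraries lie to its left.

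Other genes were closer to d8 in pattern than d9 was. The annotated genes with the highest Pearson correlation to d8 over the 36 libraries were Zm00001d034605 (r = 0.89, 47.3 to 109 RPKM) and Zm00001d003896 (r = 0.89, 165 to 546 RPKM), against a median of 0.28 over the 23756 other annotated genes tested. Like d8, Zm00001d003896 was highest at 15 days, with 475 ± 63.1 RPKM in high-oil embryos and 425 ± 85 RPKM in low-oil embryos, and lowest at 30 days in high-oil embryos (188 ± 5.32) and at 25 days in low-oil embryos (192 ± 4.58). d9 ranked 4049 in likeness to d8.

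Likeness to d9 was weaker. Its closest genes were Zm00001d020947 (r = 0.74, 6.67 to 26.6 RPKM) and Zm00001d011919 (r = 0.73, 12.8 to 86.0 RPKM), against a median of 0.05 over all others, and d8 ranked 69, but 1139 with median-of-ratios scaling and 433 on the means of the 12 groups. Zm00001d020947 had 22.8 ± 3.38 RPKM in high-oil embryos and 16.1 ± 1.89 RPKM in low-oil embryos at 15 days, and 14.0 ± 3.29 RPKM in high-oil and 18.05 ± 4.33 RPKM in low-oil embryos at 40 days, so it too was higher in high-oil embryos at the youngest age and lower on average at the oldest. These likenesses are descriptions over libraries that share line and age, and the names of the 4 genes are not paired with their IDs in the files used here. With median-of-ratios scaling the 2 genes closest to d9 stayed the closest, while those closest to d8 ranked 16 and 4. On the group means the pair named for d9 ranked 5 and 254, and the pair named for d8 ranked 19 and 21.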

How the data were processed

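The authors deposited 1 table of RPKM values, 1 column per library, and 0 columns were left unused. FastQC, TopHat2, Cufflinks and the build B73 RefGen_v4 are named, without roles, per the submitters' processing notes; no source at hand states the counter, annotation release or strand setting. The RPKM values of 100.0% of the 51853 features above 0 resolved to whole reads within 0.001 reads, which gave totals and feature lengths. The 28048 features that reached 1 RPKM in 3 or more libraries were fitted with limma 3.58.1 in R 4.3.3 on log2(RPKM + 1), 1 mean per line and age over all 36 libraries, with Benjamini-Hochberg adjustment over all features; a gene passed at an adjusted p below 0.05. Ratios, sums and correlations were tested by permutation (100000 resamples, or all splits). On simulated reads, 48% of 2-fold line differences at 15 days were recovered over 26659 features, with 6 false calls. The named genes beside d8 and d9 are the 2 most correlated annotated genes for each. Members, tests and lists were chosen with earlier results of these data known. Alternatives were other scalings, pseudocounts, filters, fits, a replicate block, limma-voom on recovered reads and each library left out.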

Additional observations from a re-analysis of the deposited data

Results flagged for a closer look

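The course of d9 over the ages differed between the lines in the test of the difference itself (limma, F = 4.77, adjusted p = 0.0448). That call was lost in 24 of the 36 fits that left out 1 library, and its adjusted p was 0.052 with limma-voom, 0.0549 with a pseudocount of 0.1, 0.0595 after median-of-ratios scaling, 0.0826 with no filter and 0.0647 after quantile normalization. The change in the log2 ratio of d8 to d9 from 15 to 40 days was -0.31 in high-oil and -1.48 in low-oil embryos, a difference of 1.18 that was at the threshold after adjustment and not below it (exact permutation test, two-sided, p = 0.015, adjusted p = 0.05 over 8 tests). This second test was added after the values were seen. Its permutation takes the lines as alike at each age, so its p is not exact for the difference between the changes alone.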

How the results depend on the processing

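The fall of d8 from 15 to 20 days and its F test over ages passed under every alternative run, and 320 of the 366 alternative values computed for d8, d9, their ratio, sum and correlation, single libraries left out aside, kept direction and side of the threshold. That count does not measure robustness, as some of its values could not change. The ratio of recovered reads repeats the main ratio tests, and a minimum of 1 log2 unit cannot alter a test that had not passed. Median-of-ratios scaling gave, in log2 units, -0.45 (high-oil) and -0.43 (low-oil) for d8 and 1.004 for d9 (low-oil) from 15 to 40 days, -0.29 for d8 and 0.0035 for d9 from 20 to 25 days, 0.017 for d8 from 25 to 30 days, 0.040 for the line difference of d9, 0.012 and -0.62 (exact permutation p = 0.04) for the sum's change from 15 to 40 days and its line interaction, and F of 4.87 (d8) and 4.36 (d9) for line by age. Quantile normalization gave -0.38, -0.44 and 0.97, then -0.26 and 0.063, then 0.032, 0.045 for the d9 line difference, 0.059 for the d8 interaction, 0.85 for d9 at 15 days, and F of 4.94 and 4.18. The d9 F was 4.72 with a pseudocount of 0.1, 4.61 with no filter and 4.99 with limma-voom (adjusted p of 0.0549, 0.0826 and 0.052). With no filter, d9 at 15 days (0.86) and d8 from 20 to 25 days (-0.44) lost their calls. Fits of the compared groups only ended the call of d8 at 30 days (-0.79) and passed d9 from 15 to 40 days (-0.57 high-oil, 0.60 low-oil) and its interaction (-1.17). Without the 3 libraries that stand apart, the d8 interaction was 0.12, d9 from 30 to 35 days -0.021, the d8 F 5.04 (adjusted p = 0.0278), the ratio change -0.72 and the sum change -0.30. A minimum of 1 log2 unit ends the calls of d9 at 15 days (0.86), d8 at 30 days (-0.79), d8 from 15 to 40 days (-0.86 and -0.83) and d8 from 20 to 25 days (-0.44). The correlation was 0.11 within the low-oil line. The causes were not tested.

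Same-numbered libraries of the lines deviated together in only 5 of 18 pairs (r over 0.1; range -0.30 to 0.39), so the numbers were not taken as pairs. The replicate block moved d9 in the low-oil line (0.60) past the threshold (limma, adjusted p = 0.0485) and took the unadjusted exact permutation p above 0.05 for the ratio change (-0.89, p = 0.0938) and for the sum's changes to 40 days (-0.40, p = 0.0625) and to 20 days (-0.66, p = 0.125); it changed no other call.

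With each library left out in turn, values ran as follows. Line differences were -0.27 to -0.17 for d8 and -0.090 to 0.0074 for d9 over all ages, 0.74 to 1.05 for d9 at 15 days, -0.30 to 0.26 for d9 at 20, -0.17 to 0.26 for d8 at 25, -1.07 to -0.61 for d8 and -0.86 to -0.37 for d9 at 30, and -0.82 to -0.32 for d9 at 35 days. Changes were -0.71 to -0.48 (high-oil) and 0.48 to 0.80 (low-oil) for d9 from 15 to 40 days, with the d8 interaction at -0.22 to 0.24. Steps were -0.39 to -0.11 for d9 from 15 to 20 days, -0.54 to -0.33 for d8 and -0.32 to -0.042 for d9 from 20 to 25 days, -0.21 to 0.026 for d8 and -0.074 to 0.17 for d9 from 25 to 30 days, -0.021 to 0.23 for d9 from 30 to 35 days and 0.29 to 0.52 for d8 and 0.16 to 0.42 for d9 from 35 to 40 days. F for line by age was 3.37 to 6.33 for d8 and 3.80 to 6.16 for d9. The sum's change to 40 days was -0.46 to -0.34 and its line interaction -0.74 to -0.49; the first came to p of 0.05 or more (exact permutation) without any 1 of replicates 1, 2 and 3 at 15 days and 1 at 40 days of high-oil, and 3 at 15 days and 1 at 40 days of low-oil embryos, and the second to an unadjusted p below 0.05 without replicate 2 of high-oil or replicate 1 of low-oil 40-day embryos. The d9 F kept its call only without high-oil 15-day replicate 1, 20-day replicates 1 and 2, 25-day replicate 3, 30-day replicate 3, 35-day replicate 2 or 40-day replicate 1, or low-oil 15-day replicate 3, 20-day replicates 2 and 3, 30-day replicate 1 or 40-day replicate 1.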
